A study of Mus musculus with 24 samples.

Results

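The enzymes that write, copy and remove DNA methylation were followed as 9 genes of the 47937 genes in the deposited count tables, listed by name, with no measured value in the rule. They are Dnmt1, Dnmt3a, Dnmt3b, Dnmt3l, Uhrf1, Tet1, Tet2, Tet3 and Tdg. Each symbol matched 1 Ensembl gene in both the RNA-seq and the MeRIP-seq table, and all 9 passed the filter on low counts in both. The question put to them was how their nuclear RNA levels and their m6A enrichment compared between ES cells with and without the m6A methyltransferase subunits Mettl14 and Mettl3.

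Mouse ES cells of 4 lines (strain 129/Sv x C57Bl6) were compared, all kept in medium with Serum Replacement and LIF on gelatin. WT26 is a wild type line, and Mettl14 KO (clone A10) was made from it with CRISPR/Cas9 and carries a homozygous frameshift deletion in Mettl14 that leaves a truncated protein. RBC is a control line with BirA-V5 at Rosa26 and a Cre-ERT2 recombinase, and Mettl3 KO (clone 2c4d) comes from RBC and carries the same transgenes. Each knockout is 1 clone, so a difference between a knockout and its control cannot be told apart from a difference between clones. Nuclear RNA was sequenced after removal of ribosomal RNA (RNA-seq, 8 libraries), and separately before and after pull-down with an antibody to m6A (MeRIP-seq, 8 input and 8 IP libraries). Each group has 2 replicates. The paper calls them biological for MeRIP-seq, and for RNA-seq the labels give only replicate numbers. The p-values therefore measure the spread between pairs of replicates of each line. In RNA-seq the replicates of RBC differed more (chi-square per degree of freedom 35.6) than those of WT26 (2.76), the Mettl14 KO (3.24) and the Mettl3 KO (5.75). A shared fit covers all of them.

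Methylation of cytosine in CpG dinucleotides is set by the de novo enzymes Dnmt3a and Dnmt3b, which act with Dnmt3l, a relative without catalytic activity. Dnmt1 copies the mark to the new strand after replication, and Uhrf1 brings Dnmt1 to hemimethylated CpG. The dioxygenases Tet1, Tet2 and Tet3 oxidize methylcytosine, and the glycosylase Tdg cuts out the more oxidized forms so that repair can restore cytosine. In mouse ES cells Tet1 and Tet2 are the main Tet enzymes, and the balance of these activities sets the level of methylation of the genome. None of the libraries measured DNA methylation or protein.

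Promoter sequence is shown for Dnmt3l, Tet2 and Tet3, the members that passed a 2-fold limit in a knockout, because CpG content is what these enzymes act on and it differs between the 3 genes. The bases are the RefSeq sequence of GRCm38.p6 upstream of the annotated start, on the strand of the gene, with each CG in capitals. For Dnmt3l, which has 3 annotated starts, the first is shown, at chr10:78042037-78042286 on the plus strand. Tet2 is at chr3:133544391-133544640 and Tet3 at chr6:83441679-83441928, both on the minus strand. All 3 windows lie inside the gene spans given below, which come from another annotation (GENCODE). Which start these cells use was not tested.
Dnmt3l: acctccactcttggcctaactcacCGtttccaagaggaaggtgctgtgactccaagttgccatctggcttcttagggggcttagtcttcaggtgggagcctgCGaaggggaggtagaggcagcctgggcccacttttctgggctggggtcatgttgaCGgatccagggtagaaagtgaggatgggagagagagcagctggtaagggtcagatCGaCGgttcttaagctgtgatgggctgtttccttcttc
Tet2: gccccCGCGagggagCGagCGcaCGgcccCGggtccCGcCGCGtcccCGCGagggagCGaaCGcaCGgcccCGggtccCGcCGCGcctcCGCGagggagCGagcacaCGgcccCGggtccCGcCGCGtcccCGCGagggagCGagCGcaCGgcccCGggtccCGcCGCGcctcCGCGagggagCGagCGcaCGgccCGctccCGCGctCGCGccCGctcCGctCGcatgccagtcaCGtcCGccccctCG
Tet3: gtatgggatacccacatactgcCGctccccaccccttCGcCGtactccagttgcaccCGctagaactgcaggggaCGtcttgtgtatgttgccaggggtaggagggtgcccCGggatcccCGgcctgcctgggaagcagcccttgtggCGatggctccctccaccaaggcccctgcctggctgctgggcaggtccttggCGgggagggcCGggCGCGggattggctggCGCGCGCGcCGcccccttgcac
The Dnmt3l window holds 5 CG, near the median of 6 over the windows of the same length before 32851 annotated starts, of which 44.4% hold fewer. The Tet2 window holds 51 CG, and 99.9% of the windows hold fewer. The Tet3 window holds 17, and 76.5% hold fewer. The windows of Dnmt3l and Tet2 lie far apart in CG count, and a relation of CG count to the RNA changes was not tested.

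For m6A, the sequence that matters is the methylation consensus in the transcript, of which GGACT is the best known form. GGACT was searched on the sense strand of the longest coding transcript of each gene in GENCODE M21 (GRCm38). The consensus is shown for Tet2, the only member that passed as enriched in an m6A IP, and for Dnmt3b, the only one that passed as depleted, with GGACT in capitals and 8 bases on each side. In Tet2 the coding sites are at chr3:133488244-133488248 in exon 3, chr3:133471393-133471397 in exon 9 and chr3:133469343-133469347 in exon 10 of 11 exons, and the first site of the 3' UTR is at chr3:133465985-133465989 in exon 11. In Dnmt3b they are at chr2:153683647-153683651 in exon 22 and chr2:153686378-153686382 in exon 24 of 24 (coding) and chr2:153686409-153686413 in the 3' UTR.
Tet2 coding, exon 3: atgtctccGGACTaagtgata
Tet2 coding, exon 9: gcatgtttGGACTtctctgct
Tet2 coding, exon 10: ctccagtaGGACTgagaaggg
Tet2 3' UTR: tccttgtaGGACTataatgta
Dnmt3b coding, exon 22: gagctgcaGGACTgcctggag
Dnmt3b coding, exon 24: cccttgaaGGACTactttgcc
Dnmt3b 3' UTR: tctacccaGGACTggggagct
The transcript of Tet2 holds 9 GGACT (1 in the 5' UTR, 3 coding and 5 in the 3' UTR) and that of Dnmt3b 4. The other members hold 15 (Dnmt3a), 13 (Tet1), 10 (Tet3), 6 (Tdg), 5 (Uhrf1), 3 (Dnmt1) and 1 (Dnmt3l). Per kb, however, Tet2 with 0.98 and Dnmt3b with 0.926 hardly differ, and both lie near the median of 1.01 per kb over 21901 coding transcripts, of which 87.6% hold the motif at least once. Other forms of the consensus, which the paper writes as RRACH (R is A or G, H is A, C or U), were not counted. A match of GGACT marks letters only and was not tested as a methylated site.

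RNA-seq libraries held 11321459 to 13743181 counted reads and MeRIP-seq libraries 9394163 to 28441282, which sets counting error only. In the Mettl14 KO, Mettl14 RNA was at 297 and 316 normalized counts against 401 and 358 in WT26 (log2 fold change -0.31, adjusted p = 0.00609, edgeR). In the Mettl3 KO, Mettl3 RNA was at 880.0 and 821 against 928 and 979 in RBC and did not pass the test (-0.16, adjusted p = 0.0588). All 10 ES cell markers were detected in all lines. Their summed level was lower in the Mettl14 KO (27265 and 27369 normalized counts) than in WT26 (37623 and 38737), and lower in the Mettl3 KO (19957 and 20804) than in RBC (33504 and 34029). All 10 fell in the Mettl14 KO, and 9 fell and 1 (Klf4) rose in the Mettl3 KO, where scaling by library size left 6 lower. The log2 fold changes ran from -0.79 (Nanog) to -0.17 (Zfp42) in the Mettl14 KO. In the Mettl3 KO they ran from -2.03 (Dppa5a) and -1.32 (Tdgf1) to -0.21 (Nanog and Esrrb) and 0.58 (Klf4). The median was -0.46 in each. Abundant markers such as Tdgf1 weigh most in the sums. In these bulk samples, fewer cells of a type and less RNA per cell cannot be told apart. Of 6 primitive endoderm markers, 4 passed the filter and all 4 rose in the Mettl14 KO. All 6 together summed to 287 to 309 there, against 94.5 to 101 in WT26. Their sum in the Mettl3 KO was 109.6 to 137, against 139 to 149.8 in RBC, and 1 of the 4 (Pdgfra) fell. The part of these marker differences in the results below was not tested.

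At the level of RNA, the 9 enzymes covered a wide range, given here as normalized counts per kb of annotated exon. This length joins the exons of all transcripts of a gene. It is 16.87 kb for Tet2 and 7.38 kb for Dnmt1, whose longest coding transcripts have 9.18 and 5.87 kb. The order of near members such as Dnmt1 and Tet2 therefore depends on the length used. Tet1 stood highest, with line means from 1019 to 1544 per kb, followed by Uhrf1 (741 to 965), Dnmt1 (457 to 765) and Tet2 (200 to 579). Dnmt3l (62.7 to 292) and Dnmt3b (155 to 216) formed the middle. Tdg (44.9 to 54.9), Dnmt3a (35.8 to 56.5) and Tet3 (13.3 to 37.8) were lowest, and the ranges of Tdg and Dnmt3a overlapped. The order of the 9 means was the same in WT26 and RBC. In the knockouts Dnmt3l stood below Dnmt3b instead of above it, and Dnmt3a stood above Tdg by less than their SDs in the Mettl14 KO (56.5 ± 2.25 and 54.9 ± 3.08 per kb, SD, n = 2).

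In RNA-seq all 9 members differed between Mettl14 KO and WT26 cells at an adjusted p of at most 0.05. Of these, 3 were higher (Dnmt3a, Tet3 and Tdg) and 6 lower. Between Mettl3 KO and RBC cells 3 were higher (Dnmt3a, Tet1 and Tet3), 5 lower (Dnmt1, Dnmt3b, Dnmt3l, Uhrf1 and Tet2) and Tdg did not pass. Over all 17021 genes tested, 25.5% were higher and 27.0% lower in the Mettl14 KO, and 25.2% were higher and 28.1% lower in the Mettl3 KO. Past a 2-fold limit as well, 2 members were called in the Mettl14 KO (Dnmt3l and Tet2), where 14.5% of all genes were, and 2 in the Mettl3 KO (Dnmt3l and Tet3), where 13.6% were. The median log2 fold change of the members was -0.29 in the Mettl14 KO and -0.17 in the Mettl3 KO, against 0.00 over all genes in both. The 2 knockout comparisons share no library.

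**Figure D1:**
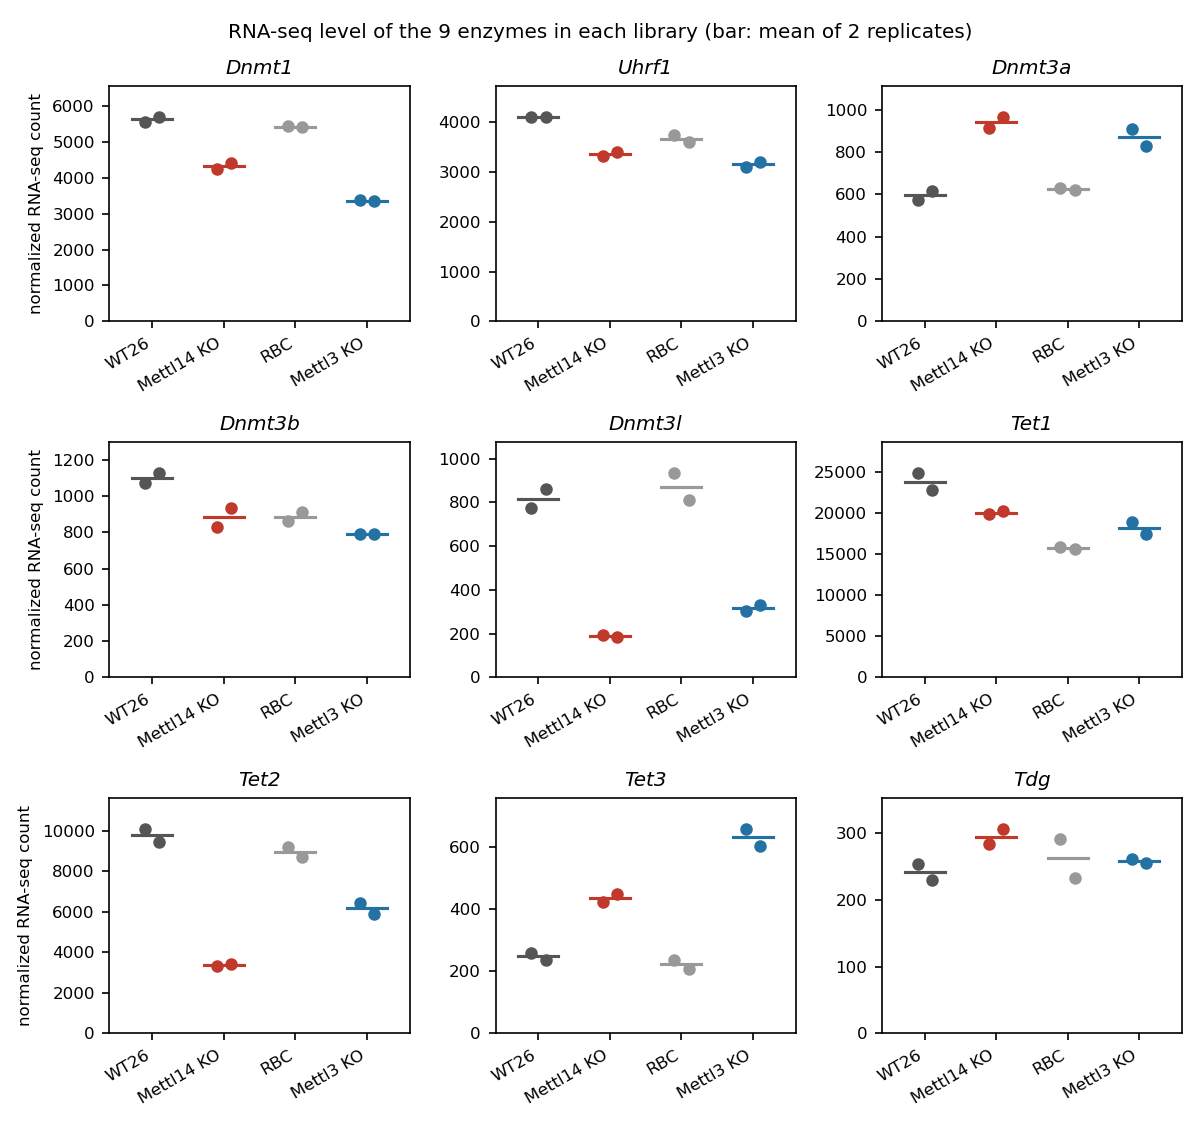
RNA-seq level of each of the 9 enzymes, as normalized counts on an axis from 0, in each RNA-seq library of the 4 lines. Points are libraries and bars the mean of 2 replicates. In both knockouts Dnmt3l, Tet2 and Dnmt1 lie below and Tet3 and Dnmt3a above their control libraries, while Tet1 lies below WT26 in the Mettl14 KO and above RBC in the Mettl3 KO.

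The maintenance pair was lower in both knockouts. Dnmt1 (ENSMUSG00000004099, GRCm38 chr9:20907209-20959888, minus strand) was at 5569 and 5715 normalized counts in WT26 and at 4268 and 4431 in the Mettl14 KO. It was at 5456 and 5415 in RBC and at 3378 and 3363 in the Mettl3 KO. Every knockout library lay below every control library, and the Mettl3 KO libraries lay lowest. Such orders of libraries, here and below, describe the values only, and their share over all genes was not counted. The fall was 1.30-fold in the Mettl14 KO (log2 fold change -0.38, SE 0.0474, adjusted p = 3.3e-06) and 1.61-fold in the Mettl3 KO (-0.69, SE 0.0478, adjusted p = 1.6e-09). Uhrf1 (ENSMUSG00000001228, chr17:56303321-56323486, plus strand), the factor that reads hemimethylated CpG, was at 4103 and 4113 in WT26, falling to 3320.1 and 3406 without Mettl14. It was at 3743 and 3599 in RBC and at 3109 and 3204 without Mettl3. Again no knockout library reached a control library, but the fall was small, 1.22-fold (adjusted p = 5.2e-05) and 1.16-fold (adjusted p = 7.7e-04). With scaling by library size the fall of Uhrf1 in the Mettl3 KO no longer passed (log2 fold change -0.07, adjusted p = 0.264).

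The members of the de novo family moved in different directions. Dnmt3a (ENSMUSG00000020661, chr12:3806007-3914443, plus strand), a catalytic enzyme, was at 575 and 617 normalized counts in WT26 and at 913 and 966 in the Mettl14 KO. It was at 629 and 621 in RBC and at 910.5 and 826 in the Mettl3 KO. The rise was 1.58-fold (log2 fold change 0.66, SE 0.0700, adjusted p = 4.0e-07) and 1.39-fold (0.48, SE 0.0702, adjusted p = 1.8e-05), with no overlap between knockout and control libraries. Dnmt3b (ENSMUSG00000027478, chr2:153649450-153687730, plus strand), the other catalytic enzyme, was at 1073 and 1128 in WT26 and at 830.3 and 932 in the Mettl14 KO. It was at 861 and 912 in RBC, within the range of the Mettl14 KO, and at 789.6 and 789 in the Mettl3 KO. It fell 1.25-fold in the Mettl14 KO (adjusted p = 5.0e-04). The fall in the Mettl3 KO was 1.12-fold (-0.17, SE 0.0668, adjusted p = 0.0414), and it no longer passed with DESeq2 (adjusted p = 0.161), with scaling by library size (-0.02, adjusted p = 0.860), with the 4 libraries compared alone (adjusted p = 0.0503), or without replicate 2 of RBC or either replicate of the Mettl3 KO (adjusted p = 0.109 to 0.243).

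Dnmt3l (ENSMUSG00000000730, chr10:78041947-78063622, plus strand), the cofactor of both, had the lowest log2 fold change of the 9 in each knockout. It was at 775 and 860.0 normalized counts in WT26 and at 191 and 183 in the Mettl14 KO, and at 936 and 809 in RBC and 303.5 and 331 in the Mettl3 KO. The libraries of the Mettl14 KO lay below those of the Mettl3 KO, and both far below the controls. The fall was 4.36-fold (-2.12, SE 0.0946, adjusted p = 6.5e-12) and 2.75-fold (-1.46, SE 0.0875, adjusted p = 2.6e-10). Per kb of exon, the means of Dnmt3l and Dnmt3a were 274 and 35.8 in WT26 but 62.7 and 56.5 in the Mettl14 KO, and 292 and 37.6 in RBC but 106 and 52.2 in the Mettl3 KO. Dnmt3l shares 67 bp (2.24%) of its annotated exons with Aire on the other strand. Aire was at 21.0 to 74.1 normalized counts over the 8 libraries, below Dnmt3l in each, and reads of the shared stretch cannot be told apart.

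Tet2 and Tet3 moved in opposite directions in both knockouts. Tet2 (ENSMUSG00000040943, chr3:133463679-133545139, minus strand) was at 10106 and 9439 normalized counts in WT26 and at 3311 and 3424 in the Mettl14 KO. It was at 9216 and 8690.1 in RBC and at 6440.3 and 5899 in the Mettl3 KO. All knockout libraries lay below all controls, with the Mettl14 KO lowest. It fell 2.90-fold (-1.54, SE 0.0590, adjusted p = 9.7e-13) and 1.45-fold (-0.54, SE 0.0576, adjusted p = 4.1e-07). Tet3 (ENSMUSG00000034832, chr6:83362373-83459084, minus strand) went the other way, from 259.5 and 235 in WT26 to 423 and 447 in the Mettl14 KO, and from 237 and 207 in RBC to 658 and 603 in the Mettl3 KO. It rose 1.75-fold (0.81, SE 0.0927, adjusted p = 9.8e-07) and 2.85-fold (1.51, SE 0.0919, adjusted p = 3.0e-10). Even after this rise Tet3 had the lowest level per kb of the 9 in each line, 26.0 in the Mettl14 KO and 37.8 in the Mettl3 KO.

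Tet1 (ENSMUSG00000047146, chr10:62804570-62908996, minus strand), the most abundant member, was at 24939 and 22777 normalized counts in WT26 and at 19871 and 20297 in the Mettl14 KO. It was at 15905 and 15599 in RBC and at 18898 and 17479.7 in the Mettl3 KO. It therefore fell in the Mettl14 KO (-0.25, SE 0.0574, adjusted p = 0.00148) and rose in the Mettl3 KO (0.21, SE 0.0575, adjusted p = 0.00548), and both knockouts lay between the 2 control lines. Tdg (ENSMUSG00000034674, chr10:82629828-82650799, plus strand), the glycosylase that acts after the Tet enzymes, was at 253 and 229.8 in WT26 and at 283 and 307 in the Mettl14 KO. In RBC it was at 291 and 234, and the Mettl3 KO libraries (261 and 256) lay between these. Its rise in the Mettl14 KO (0.29, SE 0.107, adjusted p = 0.0313) was lost with DESeq2 (adjusted p = 0.167), with scaling by library size (adjusted p = 0.0504) and without replicate 2 of WT26 or of the Mettl14 KO (adjusted p = 0.187 and 0.184). Its log2 fold change in the Mettl3 KO was -0.01 with a 95% interval of -0.24 to 0.21. Tdg shares 367 bp (6.83%) of its exons with Glt8d2 on the other strand, which had 1.8 to 8.8 normalized counts.

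The 2 control lines were not alike for every member, which bears on Tet1. Between RBC and WT26 no member was higher, 3 were lower (Dnmt3b, Uhrf1 and Tet1) and 6 did not pass, where 19.7% of all genes were higher and 19.2% lower. None of the 3 passed the 2-fold limit, which 8.98% of all genes did. Tet1 was 1.51-fold lower in RBC (-0.60, SE 0.0576, adjusted p = 2.3e-07), more than the size of its change in either knockout. Dnmt3b was 1.24-fold lower (adjusted p = 0.00103) and Uhrf1 1.12-fold (adjusted p = 0.0102, 0.114 without replicate 2 of RBC). For Dnmt3l (0.09, 95% interval -0.08 to 0.26), Dnmt1 (-0.05, -0.15 to 0.05) and Tet3 (-0.16, -0.38 to 0.05) the intervals include 0. This comparison uses the control libraries of both knockout comparisons. Scaling by library size moved the median of all genes in it to -0.16. It moved the number of lower members from 3 to 6 by adding Dnmt1, Tet2 and Tet3. Tet2 (-0.13, adjusted p = 0.0908) also passed without a filter on low counts (adjusted p = 0.0400).

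Whether the knockouts differed in their effect was tested as the difference of the log2 fold changes, Mettl14 KO against WT26 minus Mettl3 KO against RBC. It passed for 5 of the 9 members, where 43.2% of all genes passed. The fall of Tet2 was larger in the Mettl14 KO (difference -1.0, 95% interval -1.17 to -0.83, adjusted p = 3.3e-08), and so was that of Dnmt3l (-0.67, -0.94 to -0.39, adjusted p = 4.8e-04). The rise of Tet3 was larger in the Mettl3 KO (-0.70, -0.98 to -0.42, adjusted p = 3.3e-04), as was the fall of Dnmt1 (0.31, 0.17 to 0.46, adjusted p = 0.00103). Tet1, with opposite signs, differed by -0.46 (-0.63 to -0.28, adjusted p = 2.0e-04). For Dnmt3a (0.18, -0.03 to 0.39), Dnmt3b (-0.15, -0.35 to 0.05), Uhrf1 (-0.07, -0.21 to 0.07) and Tdg (0.30, -0.02 to 0.62) the difference did not pass. Without replicate 2 of RBC that of Tdg did (0.46, adjusted p = 0.0310). With scaling by library size the difference for Dnmt1 no longer passed (0.14, adjusted p = 0.132), and those for Dnmt3b (-0.33, adjusted p = 0.0124) and Uhrf1 (-0.25, adjusted p = 0.00717) did.

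The inputs of MeRIP-seq are a second measure of nuclear RNA, from separate libraries. Most members had the sign seen in RNA-seq, but the spread was larger (median SE of the members 0.293, against 0.0652 and 0.0668 in RNA-seq) and no member passed in either knockout. Among 22621 features, 0.124% were higher and 0.274% lower in the Mettl14 KO input, and 0.181% were higher and 0.579% lower in the Mettl3 KO input. Dnmt3l was at 581 and 651 normalized counts in WT26 input and at 101 and 215 in the Mettl14 KO (-1.99, SE 0.598, adjusted p = 0.177). Tet2 was at 8251 and 7542 in WT26 input and at 2809 and 4323 in the Mettl14 KO (-1.15, SE 0.407, adjusted p = 0.287). Both knockout libraries lay below both WT26 libraries for each of these genes. With 2 libraries a side this is a description and not a test, and its share over all features was not counted. With only the 4 input libraries of the comparison in the fit, Dnmt3l (adjusted p = 0.00637) and Tet2 (adjusted p = 0.00964) passed.

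Tet3 in the Mettl3 KO input was at 751 and 737 normalized counts against 275 and 351 in RBC (1.25, SE 0.313, adjusted p = 0.0833), and passed with DESeq2 (adjusted p = 0.0176). Dnmt3l of RBC input differed between replicates, at 648 and 239, while the Mettl3 KO was at 249.8 and 275. Its log2 fold change there was -0.76 (SE 0.573), and without replicate 1 of RBC it was 0.14. The fall of Dnmt3l in the Mettl3 KO was thus seen in both RBC libraries of RNA-seq but in only 1 of the 2 in MeRIP-seq input. Dnmt3b (0.20) and Tet1 (-0.11) had the opposite sign to RNA-seq, each within its SE.

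**Figure D2:**
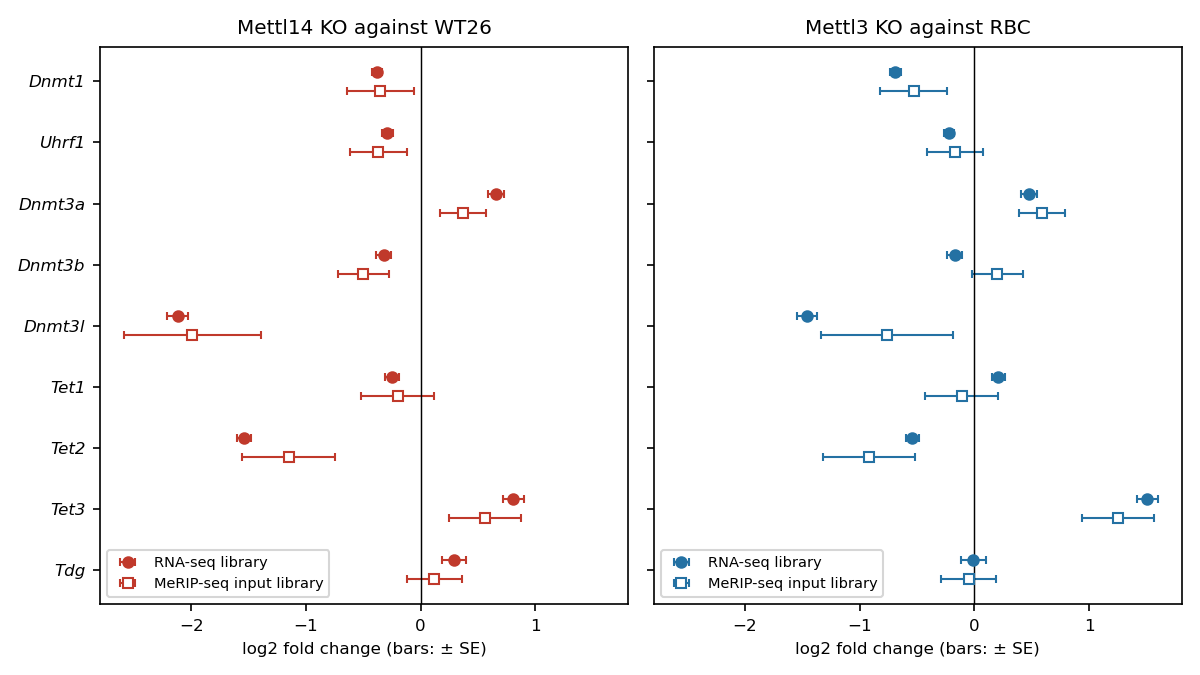
Log2 fold change of the 9 enzymes in the Mettl14 KO (left) and Mettl3 KO (right) against their control lines, with SE as bars. Filled circles are RNA-seq and open squares MeRIP-seq input libraries. Dnmt3l at -2.12 and -1.99 in the Mettl14 KO lies farthest from 0, and the input bars are several times wider than those of RNA-seq.

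m6A enrichment was measured as the log2 ratio of IP to input after scaling, averaged over all reads of a gene, so that a short methylated stretch in a long transcript gives a low value. The scaling sets the median feature of each library to about 0, and values are relative to it. Tet2 was the member most enriched in every line. Its log2 ratio was 0.69 and 1.31 in the replicates of WT26 and 0.73 and 1.24 in those of the Mettl14 KO. RBC had 0.82 and 1.37 and the Mettl3 KO 0.47 and 0.79. All 8 values were above 0, and replicate 2 was the higher in each line. The enrichment passed in RBC (1.17, SE 0.406, adjusted p = 0.0451). It did not pass in WT26 (1.02, SE 0.405, adjusted p = 0.0663), the Mettl14 KO (1.06, adjusted p = 0.0663) or the Mettl3 KO (0.63, adjusted p = 0.336). With input and IP of the same RNA as a replicate block, Tet2 passed in WT26 (1.0, adjusted p = 0.0285), in the Mettl14 KO (0.99, adjusted p = 0.0372) and in RBC (1.10, adjusted p = 0.0266). It did not pass in the Mettl3 KO with this block (0.63, adjusted p = 0.189). DESeq2 with the same block on the libraries of a line alone, added after seeing the data, passed Tet2 there (0.67, adjusted p = 0.0360). The call in RBC was lost without either replicate (adjusted p = 0.0684 and 0.514), with genes only (adjusted p = 0.0548) and with the 4 RBC libraries alone (adjusted p = 0.0845).

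The other Tet transcripts also leaned towards the IP. Tet3 had ratios of 0.53 and 1.03 in WT26, 0.17 and 1.09 in the Mettl14 KO and 0.56 and 0.91 in RBC, and of -0.08 and 0.22 in the Mettl3 KO. Tet1 had 0.29 and 0.72 in WT26, 0.36 and 0.55 in the Mettl14 KO and 0.40 and 0.79 in RBC, and -0.01 and -0.12 in the Mettl3 KO. Both Mettl3 KO values of Tet1 lay below those of the other lines, while for Tet3 1 of the 2 lay above replicate 1 of the Mettl14 KO. In the fits Tet3 reached 0.81 in WT26 (adjusted p = 0.0574) and 0.77 in RBC (adjusted p = 0.0753), and Tet1 0.53 (adjusted p = 0.204) and 0.63 (adjusted p = 0.143). Tet3 passed in WT26 with DESeq2 (adjusted p = 0.0471), without a filter on low counts (adjusted p = 0.0413) and with a block on the replicate number (0.78, adjusted p = 0.0194), and with that block in RBC too (0.75, adjusted p = 0.0263). With scaling by library size Tet3 passed in WT26, the Mettl14 KO and RBC, and Tet1 in WT26 and RBC (adjusted p = 0.00982 to 0.0380).

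Dnmt3b was the opposite case, with less RNA in the IP than in the input. Its log2 ratio was -0.96 and -1.06 in WT26 and -0.75 and -0.89 in the Mettl14 KO. RBC had -0.73 and -1.08 and the Mettl3 KO -0.48 and -0.72. It was depleted from the IP of WT26 (-1.01, SE 0.223, adjusted p = 0.00818), the Mettl14 KO (-0.82, adjusted p = 0.0203) and RBC (-0.88, adjusted p = 0.0150). It did not pass in the Mettl3 KO (-0.61, adjusted p = 0.113). With scaling by library size, which moved the median of all features to 0.45 in WT26 and the Mettl14 KO, 0.49 in RBC and 0.37 in the Mettl3 KO, the depletion was lost in all of them (-0.59, -0.40 and -0.43, adjusted p = 0.0688 to 0.224). Leaving out replicate 2 of the line also ended each of these calls (adjusted p = 0.298 in WT26, 0.380 in the Mettl14 KO and 0.421 in RBC), and leaving out replicate 1 that of the Mettl14 KO (adjusted p = 0.0802). DESeq2 with the pair block on the libraries of a line alone did not pass Dnmt3b in the Mettl14 KO (adjusted p = 0.107) or RBC (adjusted p = 0.0685), and neither did edgeR on those libraries alone (adjusted p = 0.0819 and 0.0689).

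Tdg lay below 0 in all 8 replicates (-0.78 to -0.19) and Dnmt3a close to 0 (-0.27 to 0.07), and neither passed in any line. Tdg did pass as lower in the IP of WT26 with a block on the replicate number (-0.62, adjusted p = 0.0362) and with genes only (-0.70, adjusted p = 0.0448). Dnmt1 was below 0 in the 6 replicates of WT26, the Mettl14 KO and RBC (-0.84 to -0.14) and above 0 in the Mettl3 KO (0.16 and 0.54). Dnmt3l ranged from -0.99 to 0.39 and Uhrf1 from -0.14 to 0.82, with the highest value of each in replicate 2 of the Mettl3 KO. Counted over the members, none was higher in the IP of WT26 and 1 was lower, where 16.9% and 16.1% of features were. In the Mettl14 KO these counts were none and 1 (13.5% and 12.0% of features), in RBC 1 and 1 (15.5% and 13.1%), and in the Mettl3 KO none and none (2.78% and 2.22%). Enrichment beyond 2-fold was called for Tet2 in RBC alone, where 13.4% of features were called, against 14.5% in WT26, 11.9% in the Mettl14 KO and 2.54% in the Mettl3 KO. Without an adjustment, 4 of the 9 members had a p under 0.05 in WT26 (46.2% of features), 3 in the Mettl14 KO (41.2%), 3 in RBC (43.4%) and 1 in the Mettl3 KO (25.7%). DESeq2 called 2 members higher and 1 lower in the IP of WT26, where it called 33.5% of the features with an adjusted p in either direction. It called 1 higher and 1 lower in the Mettl14 KO (32.0%) and in RBC (32.2%), and 0 in the Mettl3 KO (12.0%).

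**Figure D3:**
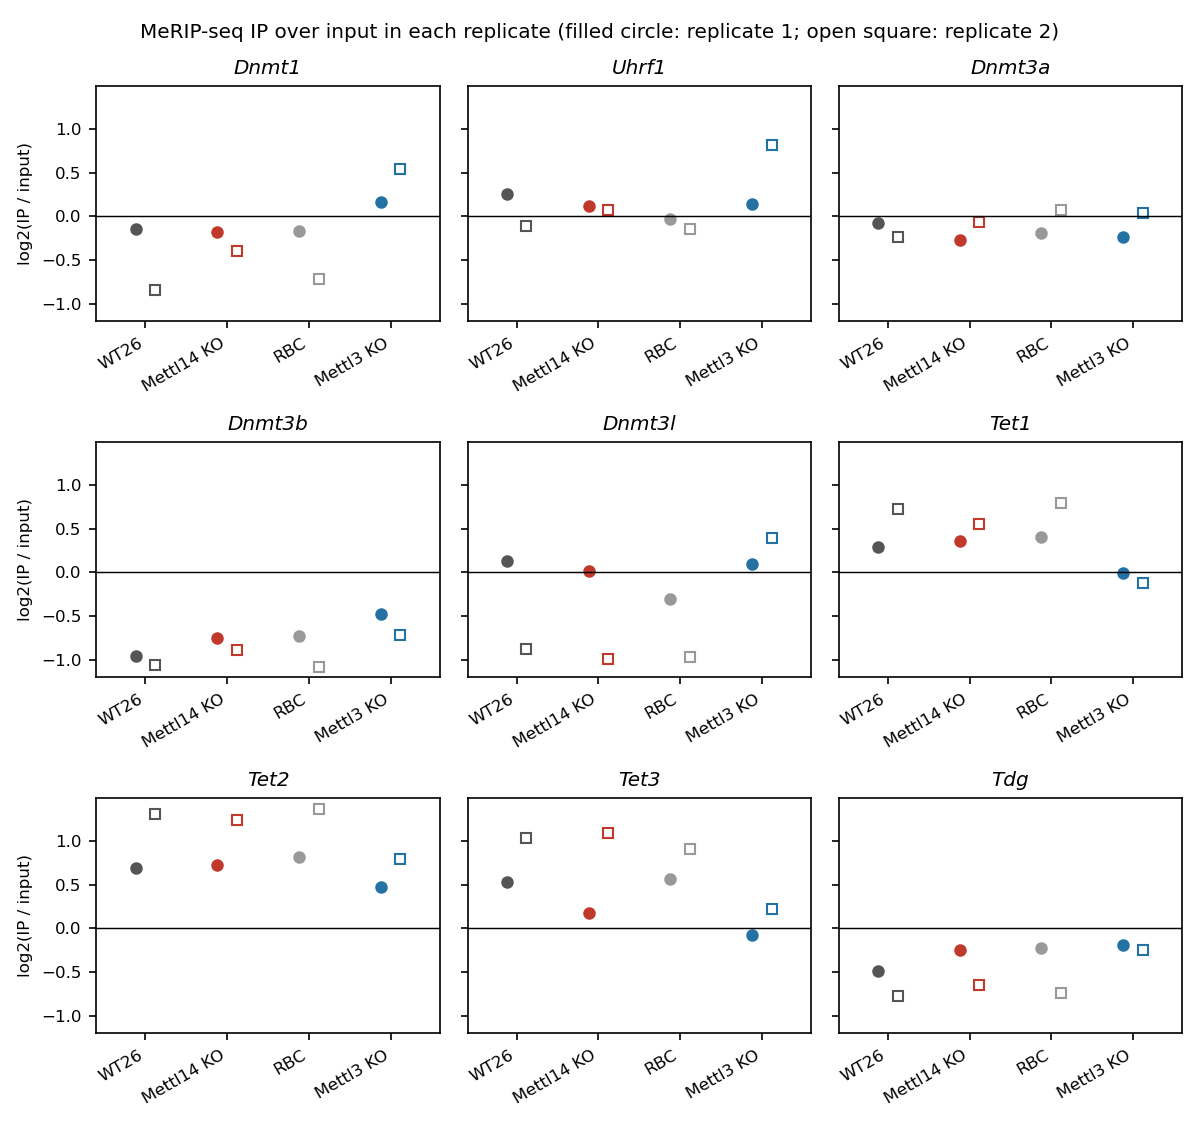
Log2 ratio of IP to input of each enzyme in replicate 1 (filled circles) and replicate 2 (open squares) of each of the 4 lines. Tet2 lies between 0.47 and 1.37 and Dnmt3b between -1.08 and -0.48 in all replicates, and replicate 2 tends to lie farther from 0 than replicate 1.

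The replicates of the IP differed in spread, which sets how far these ratios can be read. Over 22621 features the SD of the log2 ratio was 1.0 to 1.07 in replicate 1 and 1.65 to 1.73 in replicate 2 of WT26, the Mettl14 KO and RBC. It was 0.890 and 1.24 in the Mettl3 KO, narrower in each replicate than in the other lines. The members moved with it: in WT26, the Mettl14 KO and RBC, replicate 2 lay farther from 0 than replicate 1 for Tet1, Tet2, Tet3, Tdg, Dnmt1, Dnmt3b and Dnmt3l. The part of this spread in the members' ratios was not tested.

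A change of enrichment in a knockout passed for no member and for none of the 22621 features in edgeR (0.00% in the Mettl14 KO and 0.00% in the Mettl3 KO). At an unadjusted p under 0.05 there were 126 features in the Mettl14 KO and 787 in the Mettl3 KO, and no member was among them. DESeq2 called 1 feature in the Mettl14 KO and 0 in the Mettl3 KO, and no member. From these MeRIP-seq libraries the paper reports a significant loss of enrichment of major satellite repeats in the Mettl14 KO. It also reports weaker m6A peaks in 3' UTRs of the Mettl14 KO and a smaller share of peaks in 3' UTRs of the Mettl3 KO. Peaks within transcripts were not called here, and a ratio averaged over a gene can miss their loss. In the Mettl14 KO all 9 estimates of the members lay between -0.24 and 0.19, close to 0 beside their SE (median 0.414). They were spread wider in the Mettl3 KO, from -0.69 for Tet1 and Tet3 to 0.79 for Dnmt1. The 3 Tet genes and Dnmt3a had negative estimates and the other 5 positive ones. Within replicate numbers, the change of Tet3 in the Mettl3 KO was -0.64 and -0.70, that of Tet1 -0.41 and -0.91 and that of Tet2 -0.35 and -0.58. Dnmt1 had 0.33 and 1.26, Uhrf1 0.17 and 0.96 and Dnmt3l 0.40 and 1.36. The 95% intervals were wide: -1.63 to 0.24 for Tet3, -1.66 to 0.27 for Tet1, -1.75 to 0.68 for Tet2 and -0.10 to 1.68 for Dnmt1. For Tet2 in the Mettl14 KO, where its RNA fell most, the interval was -1.17 to 1.26, which includes both a 2-fold loss and a 2-fold gain of enrichment.

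**Figure D4:**
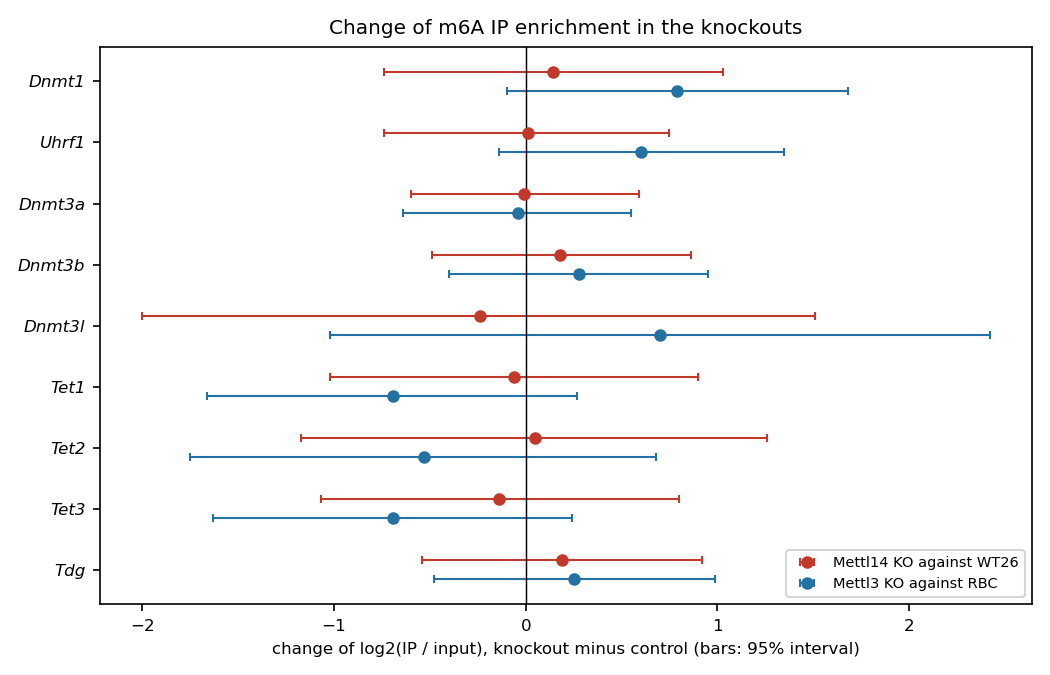
Change of the log2 ratio of IP to input in the Mettl14 KO against WT26 and in the Mettl3 KO against RBC, with 95% intervals as bars. Every interval includes 0, and the estimates of the Mettl3 KO (-0.69 to 0.79) are spread wider than those of the Mettl14 KO (-0.24 to 0.19).

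Other genes of the methylation pathway were taken from lists written by hand, and their RNA-seq changes are counted in turn. The counts of each list stand against 25.5% of all genes higher and 27.0% lower in the Mettl14 KO, and 25.2% higher and 28.1% lower in the Mettl3 KO. Of the partners of maintenance, 6 of 8 were lower and 2 higher in the Mettl14 KO (median -0.25), and 5 of 8 were lower and none higher in the Mettl3 KO (median -0.18), where scaling by library size gave 3 lower and 1 higher. Cdca7, a cofactor of the remodeler Hells, fell by 0.49 on the log2 scale in the Mettl14 KO (SE 0.0529) and Pcna, the replication clamp, by 0.64 in the Mettl3 KO (SE 0.0583). Higher in the Mettl14 KO were Cdca7l (0.34, SE 0.0903, adjusted p = 0.00400) and Uhrf2, the relative of Uhrf1, which rose from 1055 and 1015 normalized counts in WT26 to 1545 and 1568 in the Mettl14 KO (0.59, SE 0.0521, adjusted p = 4.1e-08). Its log2 fold change in the Mettl3 KO was -0.01 (SE 0.0519), and there Cdca7l had the highest value, 0.06 (SE 0.0924), which did not pass.

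Of 6 genes that guide methylation or protect from its loss or gain, 1 rose and 4 fell in the Mettl14 KO, and 3 rose and 2 fell in the Mettl3 KO (4 and 2 with library size). Dppa3, a maternal factor that keeps Uhrf1 from chromatin, rose in both. It was at 2.7 and 2.1 normalized counts in WT26 and 14.0 and 18.5 in the Mettl14 KO, and at 2.3 and 2.0 in RBC and 13.0 and 16.1 in the Mettl3 KO. The log2 fold changes were 2.67 (SE 0.538, adjusted p = 4.4e-04) and 2.70 (SE 0.578, adjusted p = 7.2e-04), from a very low level. Zfp57, the zinc finger protein that keeps imprints methylated, fell in the Mettl3 KO from 10047 and 10160.0 in RBC to 3280.1 and 3384 (-1.60, SE 0.0541, adjusted p = 1.6e-13) and less in the Mettl14 KO (-0.47, SE 0.0526). Its partner Trim28 had the lowest value of the list in the Mettl14 KO (-0.54, SE 0.0554, adjusted p = 2.5e-07).

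The methyl-CpG readers went in different directions in the knockouts. In the Mettl14 KO 1 of 8 rose and 4 fell (median -0.27), and in the Mettl3 KO 6 rose and none fell (median 0.21). Zbtb38 fell in the Mettl14 KO (-0.57, adjusted p = 6.0e-08) and Zbtb4 had the highest value in the Mettl3 KO (0.85, SE 0.206, adjusted p = 0.00200). Mbd3 had the lowest there, -0.11, and did not pass. Of the 3 Tet partners, 1 fell in the Mettl14 KO and 2 rose in the Mettl3 KO. Cxxc5, a CXXC protein known to lower Tet2 protein, rose in the Mettl3 KO from 121 and 101.5 to 204 and 259 (1.06, SE 0.139, adjusted p = 4.7e-06) and fell in the Mettl14 KO (-0.54, adjusted p = 0.00453). Its relative Cxxc4 rose in the Mettl3 KO (1.32, SE 0.535, adjusted p = 0.0452) from 5.7 and 3.9 normalized counts to 10.4 and 14.1. In the Mettl14 KO it had the lowest value of the list, -0.64 (SE 0.785), and did not pass. Ogt, which binds Tet proteins, was at 0.02 in the Mettl14 KO and 0.06 in the Mettl3 KO and passed in neither. With library size scaling all 3 Tet partners were higher in the Mettl3 KO.

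Among 12 genes of base excision repair and the Gadd45 family, which act after the Tet enzymes and Tdg, 3 rose and 5 fell in the Mettl14 KO and 2 rose and 6 fell in the Mettl3 KO (4 and 4 with library size). Apex1, the endonuclease that acts after Tdg, had the lowest value in both, from 1574 and 1628 normalized counts in WT26 to 845 and 833 in the Mettl14 KO (-0.93, SE 0.0654, adjusted p = 2.0e-09) and from 1717 and 1798 in RBC to 996 and 1169 in the Mettl3 KO (-0.70, SE 0.0638, adjusted p = 5.1e-08). Neil3, a glycosylase, rose in the Mettl14 KO from 251 and 259.8 to 542 and 582 (1.14, SE 0.0926, adjusted p = 1.4e-08), and did not pass in the Mettl3 KO (0.12, SE 0.0993). Gadd45g rose in the Mettl3 KO from 14.9 and 11.8 to 32.2 and 30.2 (1.23, SE 0.356, adjusted p = 0.00743), and in the Mettl14 KO its value of -0.89 (SE 0.590) did not pass. Of 5 genes of cofactor supply, 3 fell and none rose in each knockout (2 fell and 1 rose in the Mettl3 KO with library size). Idh1, which makes the 2-oxoglutarate that Tet enzymes use, fell most, by 0.62 (adjusted p = 6.1e-07) and 0.90 (adjusted p = 2.6e-09) on the log2 scale. Ahcy, which clears the product of methyl transfer, had the highest values, 0.16 and 0.11, and passed in neither.

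**Figure D5:**
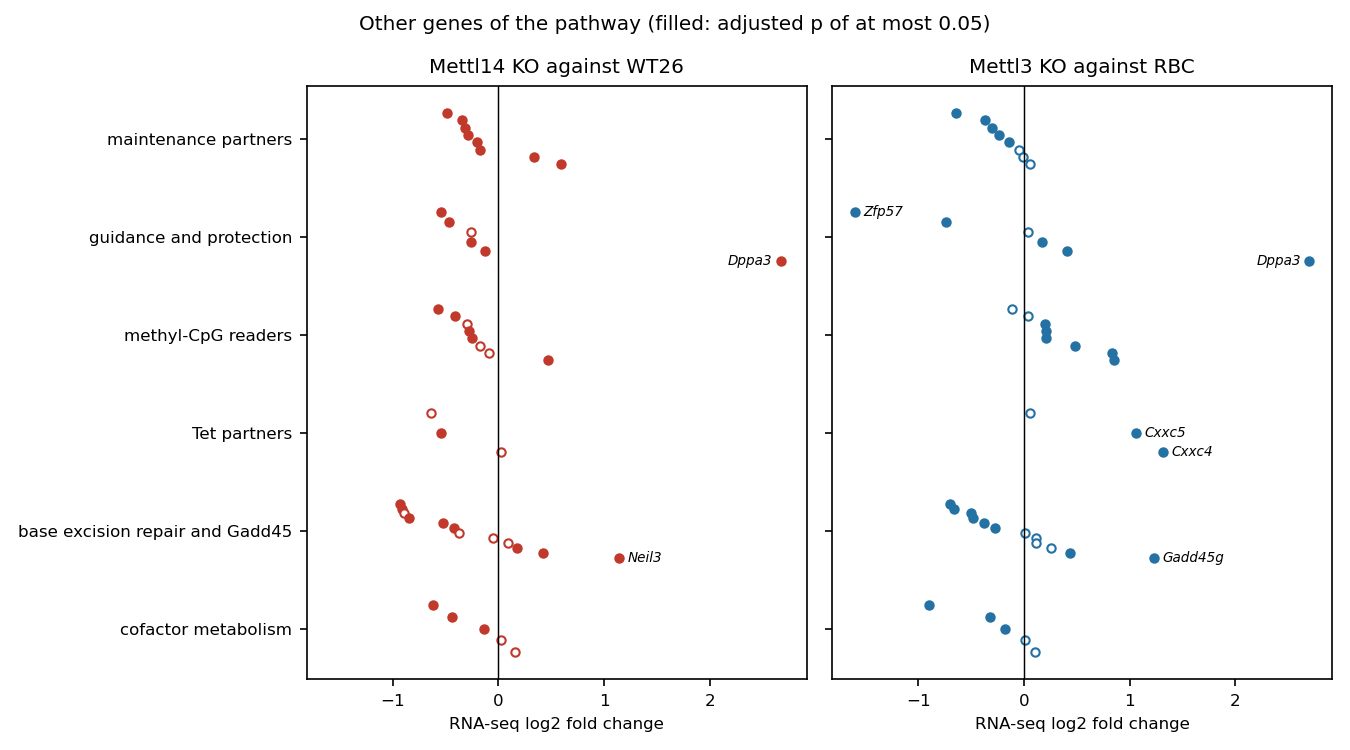
RNA-seq log2 fold change of the other pathway genes, by list, in the Mettl14 KO (left) and Mettl3 KO (right). Each point is a gene, filled where the adjusted p was at most 0.05, and genes past the 2-fold limit are named. Dppa3 lies at 2.67 and 2.70, and the methyl-CpG readers lie mostly below 0 on the left and above 0 on the right.

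The genes whose RNA-seq pattern over the 8 libraries was most like that of a member were found by Pearson correlation of log2(normalized count + 1), among the 11849 genes whose mean level was 50 normalized counts or more. With 4 lines of 2 replicates the 8 points are not independent, and many genes follow any pattern of the lines. The nearest were Tpm3 (0.995), Rbbp4 (0.994) and Ndc1 (0.993) for Dnmt3l, and Muc1 (0.998), Manba (0.996) and Rif1 (0.995) for Tet2. For Tet3 they were Lats1, B4galt2 and Cep68 (0.993 each), for Tet1 Deptor (0.990), Lyst (0.985) and Mcf2 (0.983), and for Dnmt1 Col5a3 (0.998), Dpp4 (0.996) and Id1 (0.996). Uhrf1 was followed by Dact2 (0.997), Mob3c (0.995) and Prr13 (0.994), Dnmt3a by March8 (0.989), Rptor (0.988) and Sgo2b (0.988), and Dnmt3b by Rnf114 (0.996), Ppp1r11 (0.986) and Gm10863 (0.985). Tdg had the weakest matches, Scaf4 (0.971), Mxd1 (0.954) and Rin2 (0.919).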

How the data were processed

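Raw counts deposited by the authors were used, without normalization. They give reads for each gene in 8 RNA-seq libraries and for each gene and repeat subfamily in 16 MeRIP-seq libraries (47937 genes and 1153 subfamilies, of which 47224 genes matched a symbol). For MeRIP-seq the authors aligned reads to GRCm38 with STAR and counted with TEtranscripts, which shares reads that map to several places. The submitters' processing notes list cutadapt 1.8.1, STAR 2.6.0c and DESeq2 1.26.0. The tool and strand setting behind the RNA-seq counts are not given in the sources used here, so that reads of a gene and an antisense partner may be mixed. All columns were matched to samples by their labels, and groups and replicate numbers come from them.

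Library scaling used the median of ratios (DESeq2 1.42.0), so that a change shared by most features, such as a general loss of m6A, would not show. edgeR 4.0.16 in R 4.3.3 (quasi-likelihood test, filterByExpr, Benjamini-Hochberg over 17021 genes and 22621 features) was fitted on all libraries of a table. The limit for a value to pass was an adjusted p of 0.05, with a log2 fold change above 1 in size as well for calls beyond 2-fold. The SE is the log2 fold change divided by the square root of F. Log2 ratios of single replicates used a pseudocount of 0.5. Input and IP of a number come from the same RNA, and their replicate differences correlated (r = 0.195 to 0.280 over 13662 features). The 9 enzymes are all named, and of the pathway lists those past both limits in a knockout, or else the highest and lowest of each list. A gene that this rule names is not reported here. Members and lists were chosen with earlier results of these data known. Alternatives tried were TMM and library size scaling, the Wald test of DESeq2, no filter, at least 10 counts in every library, only the libraries compared, genes only, blocks on the replicate number and on pairs of input and IP, leaving out each replicate and, added after seeing the data, DESeq2 with the pair block on the libraries compared alone. The fits were tested on simulated data. Promoters are from RefSeq (GRCm38.p6, all 9 members matched) and gene models from GENCODE M21. Repeat subfamilies entered the MeRIP-seq fits and are not described here.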

Additional observations from a re-analysis of the deposited data

Results flagged for a closer look

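For 5 of the 9 enzymes the RNA-seq change differed between the knockouts, where 43.2% of all genes did. The value tested was the log2 fold change in the Mettl14 KO against WT26 minus that in the Mettl3 KO against RBC (edgeR, adjusted over 17021 genes). The difference was 0.31 for Dnmt1, -0.67 for Dnmt3l, -0.46 for Tet1, -1.0 for Tet2 and -0.70 for Tet3. Dnmt1, Dnmt3l and Tet2 fell and Tet3 rose in both knockouts, by different amounts, and only Tet1 had opposite signs. With scaling by library size, which moved the median difference of all genes to -0.18, the value for Dnmt1 was 0.14 (adjusted p = 0.132). For Tet1 the control lines themselves differed by -0.60 (RBC against WT26), and the levels of the Mettl14 KO (19871 and 20297 normalized counts) and the Mettl3 KO (18898 and 17479.7) lay closer to each other than those of the controls (24939 and 22777, 15905 and 15599). Each knockout is 1 clone of another parental line, and gene, clone and parental line cannot be told apart.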

How the results depend on the processing

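The RNA-seq directions of Dnmt1, Dnmt3a, Dnmt3l, Tet1, Tet2 and Tet3 and their calls in both knockouts were the same in all alternatives run. Between 2 and 3 members were higher and 6 lower in the Mettl14 KO when a replicate was left out, and 3 higher and 4 to 5 lower in the Mettl3 KO. Scaling by library size moved the median of all genes to 0.15 in the Mettl3 KO and -0.16 in RBC against WT26, and the lower members to 3 (from 5) and 6 (from 3). MeRIP-seq calls of enrichment lie near the threshold and depend on the test, where the median SE of a member was 0.293 with 2 replicates. In RNA-seq of the Mettl14 KO, DESeq2 called 6146 genes (34.2% of those with an adjusted p) where edgeR called 8930. In the Mettl3 KO it called 6450 (35.9%) against 9085. The RNA-seq shares of all genes given with the members are those of edgeR. In RBC against WT26 DESeq2 called 4162 against 6619, and for the difference between knockouts 4806 against 7346. In the IP of the Mettl3 KO it called 2367 features against 1131. In the inputs it called 412 against 90 in the Mettl14 KO and 460 against 172 in the Mettl3 KO. The cause of the changes below was not tested unless the setting itself, fewer features or fewer samples, is the cause.

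Members higher in the IP of WT26 numbered 2 with DESeq2, 3 with library size, 2 without a filter, 2 with a block on the replicate number, and 1 with a block on pairs in edgeR or in DESeq2 (the latter added after seeing the data), against 0. In the Mettl14 KO they numbered 1, 2, 1, 1, 1 and 1, against 0. In RBC they numbered 3 with library size, 2 with the replicate block, 0 with genes only, 0 with only the libraries compared and 0 to 0 without a replicate, against 1. In the Mettl3 KO they numbered 1 with library size and 1 with the DESeq2 pair block, against 0. Members enriched beyond 2-fold numbered 1 with DESeq2, 2 with library size and 1 without a filter in WT26, and 1, 2, 1 and, with the replicate block, 1 in the Mettl14 KO, against 0. In RBC they numbered 3 with library size and 0 with genes only, only the libraries compared or without a replicate, against 1. In input, the lower members of the Mettl14 KO numbered 1 with DESeq2, 2 without a filter and 2 with only the libraries compared. In the Mettl3 KO input the higher members numbered 1 with DESeq2, 1 without a filter, 1 with the replicate block and 2 with only the libraries compared, and the lower 2 with the last. DESeq2 called 2.16% of features in the Mettl14 KO input and 1.96% in the Mettl3 KO input. For the other settings the share of all features called was not counted. Library size moved the median IP ratio of all features to 0.45 in WT26 and the Mettl14 KO, 0.49 in RBC and 0.37 in the Mettl3 KO.

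Some values that had not passed changed sign. With library size, Tdg in the Mettl3 KO was 0.14, and in RBC against WT26 Dnmt3a was -0.079, Dnmt3l -0.055 and Tdg -0.039. The IP ratio became 0.0016, 0.26 and 0.13 for Dnmt1, Dnmt3a and Dnmt3l in WT26, 0.14 and 0.25 for Dnmt1 and Dnmt3a in the Mettl14 KO, 0.032, 0.40, 0.029 and 0.37 for Dnmt1, Dnmt3a, Dnmt3l and Uhrf1 in RBC, and 0.29, 0.31 and 0.16 for Dnmt3a, Tet1 and Tdg in the Mettl3 KO. Tet1 and Tdg in Mettl3 KO input became 0.0059 and 0.064. The change of enrichment in the Mettl14 KO became 0.044 (TMM) and 0.0034 (genes only) for Dnmt3a, and -0.0084 (pair block) and -0.0068 (DESeq2 pair block) for Tet2.

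Without each replicate in turn, Tdg ranged from -0.17 to 0.14 in the Mettl3 KO and from -0.050 to 0.27 in RBC against WT26, where Dnmt3l ranged from -0.012 to 0.20. IP ratios ranged from -0.11 to 0.27 (Uhrf1) and -0.89 to 0.14 (Dnmt3l) in WT26, -0.99 to 0.033 (Dnmt3l) in the Mettl14 KO, -0.19 to 0.068 (Dnmt3a) in RBC, and -0.24 to 0.040 (Dnmt3a) and -0.078 to 0.21 (Tet3) in the Mettl3 KO. Changes of enrichment in the Mettl14 KO ranged from -0.10 to 0.11 (Dnmt3a), -0.68 to 0.34 (Dnmt3l), -0.28 to 0.38 (Tet2), -0.14 to 0.55 (Dnmt1), -0.16 to 0.21 (Uhrf1), -0.25 to 0.18 (Tet1), -0.64 to 0.28 (Tet3) and -0.024 to 0.37 (Tdg), and in the Mettl3 KO from -0.18 to 0.10 (Dnmt3a). Mettl3 KO input ranged from -1.31 to 0.14 (Dnmt3l), -0.24 to 0.043 (Tet1), -0.13 to 0.026 (Tdg) and -0.0047 to 0.38 (Dnmt3b).

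RNA-seq replicate numbers across lines are only a shared number (r of the replicate differences -0.172 to 0.453 over 11879 genes), and a replicate block left the RNA-seq counts of members as they were. IP and input replicates of the same number deviated together across lines (r = 0.598 to 0.806 for IP and 0.251 to 0.452 for input), which is a hint from the data and not a pairing by design. With the replicate block Tet3 passed in the Mettl3 KO input (1.27, adjusted p = 0.016).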

Other observations

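Markers of other cell types were summed in RNA-seq as a measure of the cells in culture. Of 5 markers of 2-cell-like cells, 3 passed the filter on low counts and all 3 fell in both knockouts (2 in the Mettl3 KO with library size scaling). All 5 together summed to 94.5 to 119.4 normalized counts in WT26 and 31.0 to 33.1 in the Mettl14 KO. In RBC they summed to 70.0 to 96.6, and to 32.2 in both Mettl3 KO libraries. Neural markers moved in both directions. Pax6 rose in the Mettl14 KO and Mettl3 KO (1.96 and 1.21 on the log2 scale), Neurod1 fell in both (-2.81 and -1.19), and Tubb3 fell in the first (-1.09) and rose in the second (0.45). They summed to 936.9 and 971.6 in WT26 and 659 and 691.7 in the Mettl14 KO, and to 1299 and 1274 in RBC and 1445 and 1532 in the Mettl3 KO. The sums of primed epiblast markers lay between 103.2 and 169.6 and those of mesoderm markers between 63.1 and 106.3 in all 8 libraries, but single markers moved: Pou3f1 (-3.06) and Kdr (-2.62) fell and Otx2 (0.65) rose in the Mettl14 KO, and Lef1 rose in the Mettl3 KO (3.52). Fibroblast markers summed to 27.3 to 116.3, with Dcn at 0 in all lines. Among them Thy1 fell in the Mettl14 KO and Mettl3 KO (-2.03 and -2.62). Col1a2 rose in the Mettl3 KO (2.26), from 6.9 and 3.0 normalized counts in RBC to 22.6 and 24.2. The part of these markers in the changes of the 9 enzymes was not tested.

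Aire, which overlaps Dnmt3l on the other strand, was at 65.1 and 74.1 normalized counts in WT26 and at 21.0 and 21.4 in the Mettl14 KO, and at 40.2 and 44.4 in RBC and 33.0 and 25.2 in the Mettl3 KO. It lay lower in both knockouts, as Dnmt3l did.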
